A study of Mus musculus with 6 samples.

Results

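The genes described here are Atf4 and 9 genes it controls or works beside, Atf5, Asns, Trib3, Chac1, Psat1, Shmt2, Mthfd2, Slc7a11 and Slc7a5. They were taken by symbol, and all 10 matched a single row among the 54532 Ensembl gene IDs of the count tables. RNA came from mouse embryo heads at embryonic day 8.5, with 3 heads per pool and 3 pools per genotype, taken before malformation was visible. The wild-type pools are labelled WT. The mutant pools are labelled Sf3b4 NCC mutant, where NCC stands for neural crest cells, the migratory cells that build much of the face, and their titles call them homozygous nulls. In the design text the deletion of Sf3b4 is in those cells, while the RNA is of whole heads. The sources used here do not give the Cre line, the somite stage or the litter behind each pool. The p-values therefore measure the spread between these pools.

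The integrated stress response is a shared answer to amino acid shortage, misfolded protein in the endoplasmic reticulum, haem shortage and double-stranded RNA. Each of these activates a kinase that phosphorylates the translation factor eIF2, which lowers protein synthesis in general while the mRNA of ATF4 is translated more efficiently through its upstream reading frames. ATF4, a basic leucine zipper transcription factor that pairs with C/EBP proteins, then raises genes for amino acid synthesis and uptake, serine and one-carbon metabolism, tRNA charging and, when stress lasts, cell death. Growing embryonic tissue also uses many of these enzymes without stress. The counts below measure RNA and not the ATF4 protein or the phosphorylation of eIF2.

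ATF4 and C/EBP partners bind a composite element, and the letters TGATGNAA, with N any base, were searched on both strands of the 250 bases before each transcription start in RefSeq promoter windows (GRCm38.p6). Of the 10 genes 9 had a window, with 11 windows in all, and 3 genes held 4 matches. The letters occur in 3.45% of all 32851 windows, and 3.91% of the 27025 genes with a window hold a match. The 4 matches are shown so that the letters can be seen in their surroundings. Each is printed 5′ to 3′ on the strand of the gene, with the matching letters in capitals. Distances are to the RefSeq start. For Asns that start, at 7693209, lies inside the GENCODE gene given below, and so does the match.
Asns (chr6:7693214-7693243, minus strand, match 23 to 16 bases before the start): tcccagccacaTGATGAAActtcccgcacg
Chac1 (chr2:119351038-119351067, plus strand, reverse orientation, 193 to 186 bases before the start): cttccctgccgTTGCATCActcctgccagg
Slc7a11 (chr3:50443661-50443690, minus strand, 66 to 59 bases before the start): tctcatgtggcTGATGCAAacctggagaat
Slc7a11 (chr3:50443642-50443671, minus strand, reverse orientation, 47 to 40 bases before the start): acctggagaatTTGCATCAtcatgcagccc
The windows of Atf4, Atf5, Trib3, Psat1, Shmt2 and Mthfd2 did not hold these letters, which says nothing about elements elsewhere in those genes. A match is a description of the sequence only.

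Total counts ran from 6930827 to 12251910 per pool, and 14008 genes passed the filter on low counts and were tested. Levels are CPM, the counts divided by TMM-scaled library sizes. Sf3b4, which encodes the subunit of the SF3B splicing complex that was deleted, was read at 77.7, 72.8 and 63.9 CPM in wild-type heads against 56.1, 64.2 and 60.9 CPM in mutant heads. The ranges overlapped, and the log2 fold change of -0.24 did not pass (edgeR adjusted p = 0.128). Of 10 genes that mark regions of the head, all were read, with summed levels of 347 to 353 CPM in wild-type and 331 to 346 CPM in mutant pools. One of them, the midbrain and hindbrain boundary gene En1, fell from 30.6 to 18 CPM on average (log2 fold change -0.79, edgeR adjusted p = 0.00196). Of 5 trunk Hox genes Hoxc8 and Hoxc9 were at 0 in every pool, and the sums were 0 to 0.172 CPM in wild-type and 0.813 to 1.97 CPM in mutant pools. Most of the mutant sums came from a single gene, Hoxa10. It had 0, 1 and 1 counts in wild-type and 20, 10 and 6 counts in mutant pools. The 7 neural crest markers summed to 330 to 355 CPM in wild-type and to 245 to 270 CPM in mutant pools. All 7 had log2 fold changes below 0. Sox10 (-1.15, edgeR adjusted p = 5.68e-05), Tfap2b (-0.95, edgeR adjusted p = 0.000936) and Sox9 (-0.37, edgeR adjusted p = 0.0359) were called lower, against 3.88% of all genes tested. The 4 endothelial markers summed to 168 to 190 CPM in wild-type and 205 to 219 CPM in mutant pools. Of these Kdr was called higher (0.31, edgeR adjusted p = 0.0356). Sums of 5 heart genes (25.9 to 76.6 and 36.6 to 42.4 CPM), 5 primitive erythroid genes (98.8 to 248 and 73.7 to 164 CPM) and 5 yolk sac and endoderm genes (15.3 to 17.1 and 16.6 to 21.9 CPM) overlapped between the genotypes. Y-linked genes took 344 to 664 counts in 4 pools, but a single count (1) in wild-type replicate 1 and likewise in mutant replicate 3. The part of these differences in the results below was not tested.

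Levels of the members differed widely, with Atf4, Psat1 and Shmt2 the highest and Chac1, Slc7a11 and Trib3 the lowest in both genotypes. To compare genes, levels were divided by exon length, in CPM per kb of annotated exon. Atf4 was the most abundant, at 64.8 ± 1.11 CPM per kb in wild-type and 70.7 ± 2.97 CPM per kb in mutant pools (SD, n = 3 each), above 95.4% of tested genes. It was followed by Psat1 (55.5 ± 5.52 and 57.5 ± 2.28 CPM per kb), Shmt2 (45.1 ± 4.17 and 41.4 ± 4.14), Asns (28.6 ± 2.09 and 30.7 ± 4.24), Mthfd2 (21.4 ± 1.38 and 21.6 ± 0.282) and Slc7a5 (18.8 ± 0.737 and 15.9 ± 0.757). Atf5 lay lower, at 6.04 ± 0.942 and 7.77 ± 0.381 CPM per kb. Chac1, Slc7a11 and Trib3 were all below 1 CPM per kb in every pool, and no more than 11.1% of tested genes lay under any of these 3. Over the 6 pools neighbours in this order did not overlap, except Psat1 with Shmt2, Chac1 with Slc7a11 and Slc7a11 with Trib3. The annotated exons of Slc7a11 come to 13922 bases, against 1637 to 4254 for the other members, so its value per kb depends most on which transcripts are counted.

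**Figure D1:**
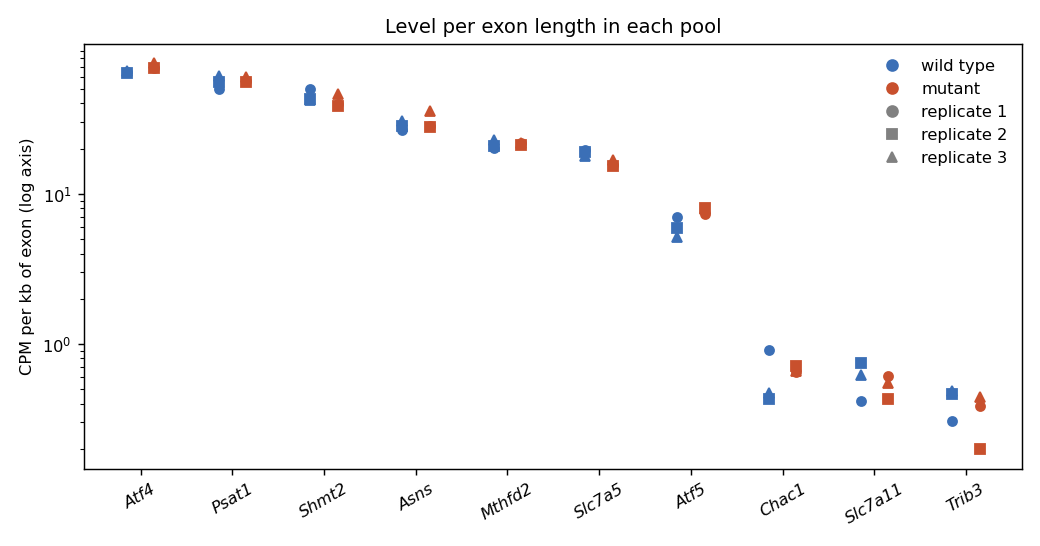
Level of each member in each pool, in CPM per kb of annotated exon on a log axis, with the genes ordered by their wild-type mean. Blue points are wild-type and orange points mutant pools, and the marker gives the replicate number. Chac1, Slc7a11 and Trib3 sit below 1 CPM per kb in every pool and Atf4 lies above 60 in every pool.

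None of the 9 members that could be tested differed between the genotypes past the threshold, against 6.52% of all genes tested (two-sided quasi-likelihood test of edgeR, p adjusted by Benjamini-Hochberg over all 14008 genes, threshold 0.05). Of all genes 2.65% were called higher and 3.88% lower in the mutant pools. Trib3 was the member left out by the filter on low counts. At an unadjusted p under 0.05 the test marked Atf5 and Slc7a5, 2 of the 9, against 23.2% of all genes. DESeq2 and limma-voom called no member either. Of the 9 log2 fold changes 6 were above 0 and 3 below it, with a median of 0.05 and a range from -0.25 to 0.36, while the median over all genes was 0.00. In 3 members, Atf4, Atf5 and Slc7a5, the mutant pools did not overlap the wild-type pools, as in 28.3% of all genes tested. Whole heads were measured, so fewer cells of a type and less RNA per cell cannot be told apart, and a change within neural crest cells alone would appear here diluted by the other cells.

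Among the regulators, Atf4 (ENSMUSG00000042406, chromosome 15, 80255184 to 80257541, plus strand) had levels of 153, 150 and 155 CPM in the wild-type pools, against 164, 162 and 175 CPM in mutants. Every mutant pool lay above every wild-type pool, and mutant replicate 3 was the highest. The log2 fold change was 0.12 (SE 0.0704, 95% interval -0.02 to 0.27), and it did not pass (edgeR adjusted p = 0.306). The interval corresponds to folds of 0.98 to 1.21. The difference had the same sign among the 4 pools that held Y-linked counts (152 and 163 CPM on average) and between the 2 pools that lacked them (153 and 175 CPM).

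Atf5 (ENSMUSG00000038539, chromosome 7, 44812256 to 44816658, minus strand) encodes a related leucine zipper factor whose mRNA is likewise under translational control and which drives genes of the mitochondrial unfolded protein response. Its levels were 14.0, 11.9 and 10.2 CPM in wild type and 14.6, 16 and 15.8 CPM in mutants. All mutant pools were higher, although wild-type replicate 1 lay within 1 CPM of mutant replicate 1. It had the largest log2 fold change of the tested members, 0.36 (SE 0.139, 95% interval 0.06 to 0.66), and did not pass (edgeR adjusted p = 0.135). The value ranged from 0.24 to 0.50 over the alternative settings, with adjusted p from 0.0503 to 0.311. Of its annotated exonic bases 4.11% are shared with Il4i1 and Nup62 on the other strand.

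Trib3 (ENSMUSG00000032715, chromosome 2, 152337422 to 152344032, minus strand) encodes a pseudokinase that restrains ATF4 and AKT signalling, and it is among the genes most strongly induced when the pathway is on. Its counts were 7, 7 and 12 in the wild-type pools and 10, 4 and 7 in mutants. The genotypes overlapped, with the highest count in a wild-type and the lowest in a mutant pool. Scaled by library size, the summed counts of 26 and 21 gave a ratio of 0.82 (exact 95% interval 0.44 to 1.51, counting error only). Chac1 (ENSMUSG00000027313, chromosome 2, 119351229 to 119354381, plus strand), which encodes an enzyme that breaks down glutathione, was as scarce. It was counted 16, 5 and 9 times in wild type and 13, 11 and 8 times in mutants. At CPM values of 1.48, 0.706 and 0.775 against 1.07, 1.16 and 1.08, the mutant pools lay inside the wild-type range. The log2 fold change of 0.12 had a wide interval, -0.74 to 0.98 (SE 0.407, edgeR adjusted p = 0.891). For Trib3, edgeR without the filter on low counts gave a log2 fold change of -0.29 (95% interval -1.29 to 0.71, adjusted p = 0.816). No detection limit was computed for Trib3 or Chac1, and changes of these genes within these intervals are not excluded.

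**Figure D2:**
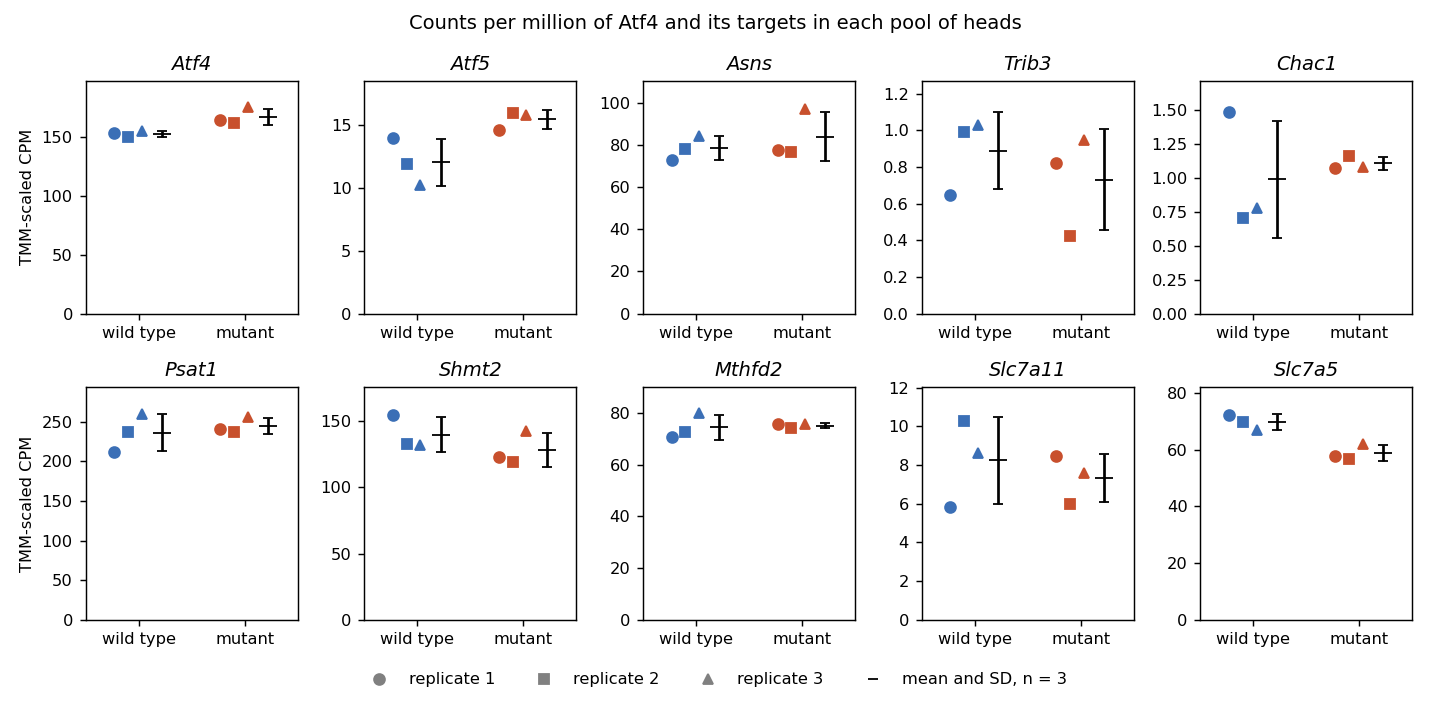
TMM-scaled CPM of each member in each pool, with a linear axis from 0 in every panel. The marker gives the replicate number, and the bar beside each group is the mean and SD of its 3 pools. The mutant pools of Atf4 and Atf5 lie above and those of Slc7a5 below all wild-type pools, while the other 7 overlap.

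The genotypes overlapped for both enzymes of amino acid synthesis. Asns (ENSMUSG00000029752, chromosome 6, 7675169 to 7693254, minus strand) encodes asparagine synthetase, the classical ATF4 target. Its levels were 72.8, 78.0 and 84.2 CPM in wild type, and the mutants gave 77.8, 76.5 and 97.2 CPM. Only mutant replicate 3 lay above the wild-type range. The log2 fold change was 0.09 (SE 0.0971, 95% interval -0.11 to 0.30, edgeR adjusted p = 0.611). It was -0.02 without mutant replicate 3 and -0.08 among the 4 pools that held Y-linked counts, so its sign rested on that pool, and neither value passed (edgeR adjusted p = 0.923 and 0.636). Psat1 (ENSMUSG00000024640, chromosome 19, 15904678 to 15947337, minus strand) encodes phosphoserine aminotransferase, a step of serine synthesis. Its levels were 212, 237 and 259 CPM in wild-type and 241, 237 and 256 CPM in mutant pools, and all mutant pools lay within the wild-type range. The log2 fold change was 0.05 (SE 0.0812, 95% interval -0.12 to 0.22, edgeR adjusted p = 0.747). A processed pseudogene, Gm12611, is 91.0% identical to Psat1 over 1056 bases and can share its reads.

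Neither of the mitochondrial one-carbon enzymes passed, and their fold changes had opposite signs. Shmt2 (ENSMUSG00000025403, chromosome 10, 127517123 to 127522444, minus strand) encodes the serine hydroxymethyltransferase that feeds serine carbon into mitochondrial folate. It was read at 155, 133 and 132 CPM in wild-type and 123, 119 and 143 CPM in mutant pools. The groups overlapped through mutant replicate 3, and the highest pool of each genotype was the one that lacked Y-linked counts. The log2 fold change was -0.13 (SE 0.0878, 95% interval -0.32 to 0.06, edgeR adjusted p = 0.397). Mthfd2 (ENSMUSG00000005667, chromosome 6, 83305691 to 83325908, minus strand), the dehydrogenase and cyclohydrolase of the next steps, gave 70.9, 72.6 and 79.9 CPM in wild-type and 75.8, 74.1 and 75.7 CPM in mutant pools. All 3 mutant pools lay inside the wild-type range. Its log2 fold change of 0.01 (95% interval -0.15 to 0.18, edgeR adjusted p = 0.943) was the smallest in size of the 9.

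The transporter members had negative fold changes. Slc7a5 (ENSMUSG00000040010, chromosome 8, 121881150 to 121907694, minus strand) encodes the LAT1 transporter of large neutral amino acids. It was read at 72.3, 69.9 and 66.8 CPM in wild-type and 57.8, 56.7 and 62.0 CPM in mutant pools. Every mutant pool lay below every wild-type pool. The log2 fold change was -0.25 (SE 0.081, 95% interval -0.42 to -0.07), a fold of 0.84, and it did not pass over all genes (edgeR adjusted p = 0.0833). It passed without wild-type replicate 3 (edgeR adjusted p = 0.0451), and its adjusted p ran up to 0.306 in the other settings. Slc7a11 (ENSMUSG00000027737, chromosome 3, 49892526 to 50443614, minus strand) encodes the cystine importer xCT, the source of cysteine for glutathione. It was read at 5.84, 10.3 and 8.61 CPM in wild-type and 8.45, 6.0 and 7.58 CPM in mutant pools. All mutant pools lay within the wild-type range, and the log2 fold change was -0.14 (SE 0.207, 95% interval -0.58 to 0.30, edgeR adjusted p = 0.73). Without wild-type replicate 2 it was 0.03. An annotated exon of Slc7a11 carries a stretch of 585 bases that is 92.5% identical to the alpha-tubulin gene Tuba1b, with similar matches to Tuba1a and Tuba1c, so tubulin reads can be counted there.

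**Figure D3:**
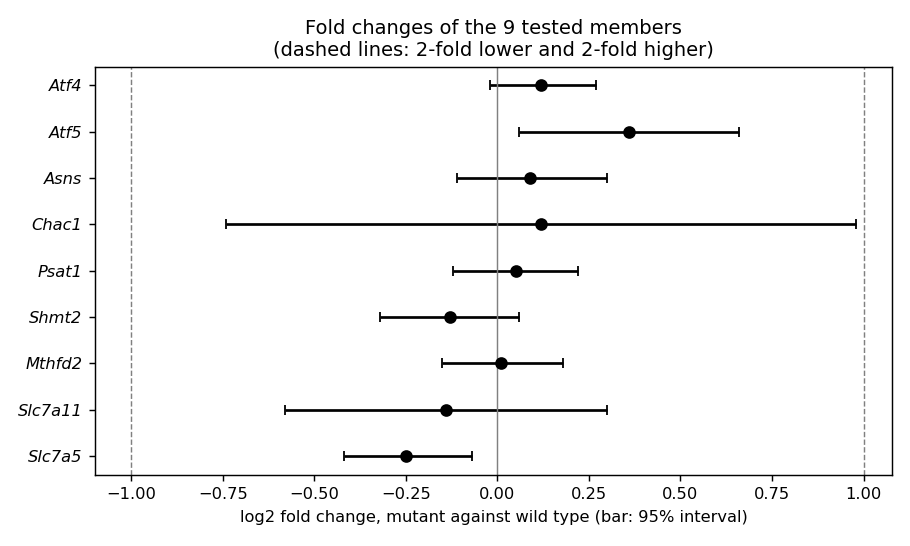
Log2 fold change of the 9 tested members, mutant against wild type (points), with unadjusted 95% intervals from the edgeR fit (bars) and dashed lines at 2-fold lower and 2-fold higher. Every bar lies within the dashed lines, that of Chac1 from -0.74 to 0.98, and those of Atf5 and Slc7a5 do not reach 0.

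Read as limits on the size of a change in whole heads, the unadjusted 95% intervals of the 9 tested members all lay between folds of 0.60 and 1.98. Without the scarce Chac1 they lay between 0.67 and 1.58. For the 6 members read at over 50 CPM in every pool, Atf4, Asns, Psat1, Shmt2, Mthfd2 and Slc7a5, they lay between 0.75 and 1.23, and that of Slc7a5 (0.75 to 0.95) did not reach 1. A difference that misses the threshold does not show that the genotypes were equal, and these bounds say how large it could have been.

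The members did not rank the pools alike. The highest level was in mutant replicate 3 for Atf4 and Asns, in mutant replicate 2 for Atf5, in wild-type replicate 1 for Chac1, Shmt2 and Slc7a5, in wild-type replicate 2 for Slc7a11 and in wild-type replicate 3 for Trib3, Psat1 and Mthfd2. By the root mean square difference of centred log2 CPM over the 6 pools, the tested genes nearest to Atf4 were Ppm1f, Erlin2, Bub3, Kctd6 and Rpn2, at 0.0113 to 0.0190, and none of them is a member. The nearest member, Mthfd2, lay at 0.0771, and 9.44% of tested genes were nearer. Psat1 followed at 0.0882, Asns at 0.0971, Shmt2 at 0.154, Atf5 at 0.185 and Slc7a5 at 0.189, and Chac1 (0.284) and Slc7a11 (0.308) were the farthest of the 9. This distance is small for any gene that, like Atf4, varied little over the pools, and it grows with count noise. It therefore does not show whether a gene follows Atf4.

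The other genes of the pathway, in lists by role that hold no member, gave 2 higher and 1 lower among 66 tested of 69, near the shares over all genes, with a median log2 fold change of 0.00. None of 12 tested genes for the eIF2 kinases, eIF2 and its exchange factor and phosphatase passed. The smallest p belonged to Eif2ak2, the kinase PKR that senses double-stranded RNA, at 18.8 CPM in wild-type and 23.8 CPM in mutant pools on average, a log2 fold change of 0.33 (edgeR adjusted p = 0.116). Eif2ak2 passed in 1 of 18 alternative settings, the fit without wild-type replicate 3 (edgeR adjusted p = 0.0155). Its adjusted p ran up to 0.316 in the others. Eif2ak1, the haem-regulated kinase, followed at -0.18 (edgeR adjusted p = 0.275), and 11.6% of its exonic bases are shared with genes on the other strand. The kinases PERK (Eif2ak3) and GCN2 (Eif2ak4) had log2 fold changes of 0.02 and -0.06. Of the partner transcription factors Atf3 (0.21, edgeR adjusted p = 0.627) and Cebpb (0.34, edgeR adjusted p = 0.703) did not pass. Cebpb shares 20.7% of its exonic bases with Tmem189 on the other strand. Nupr1 had 3 counts in all pools together. The symbol Ddit3, for the CHOP protein that promotes death under lasting stress, matched 2 IDs and stayed out of these counts. One ID was at 0 in every pool. The other was read at 2.32, 2.26 and 1.98 CPM in wild-type and at 3.61, 3.05 and 3.11 CPM in mutant pools, which do not overlap, with a log2 fold change of 0.59 that did not pass (edgeR adjusted p = 0.167). Exons under the symbol Ddit3 share bases with Mars on the other strand, which averaged 187 CPM in wild-type and 190 CPM in mutant pools.

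Of 9 other genes of amino acid synthesis none passed, with a median of -0.07. Phgdh, the first enzyme of serine synthesis and the step before Psat1, was read at 157, 149 and 163 CPM in wild-type and at 185, 176 and 185 CPM in mutant pools. All mutant pools were higher, and the log2 fold change of 0.22 did not pass (edgeR adjusted p = 0.0782). It passed in 3 of 18 alternative settings, among them the main fit read at a threshold of 0.1. Cbs, of the transsulfuration route, had a log2 fold change of -0.57 (edgeR adjusted p = 0.219). Of 5 other one-carbon enzymes none passed. Mthfd2l, a mitochondrial relative of Mthfd2, averaged 25.6 CPM in wild-type and 34.9 CPM in mutant pools (log2 fold change 0.45, edgeR adjusted p = 0.0581), with mutant replicate 3 inside the wild-type range. Mthfd2l passed in 7 of 18 alternative settings, also counting the main fit at a threshold of 0.1. Over the 18 its log2 fold change ran from 0.34 to 0.60 and its adjusted p from 0.00229 to 0.271. Aldh1l2, the mitochondrial 10-formyltetrahydrofolate dehydrogenase, had a log2 fold change of -0.97 at 2.23 and 1.14 CPM (edgeR adjusted p = 0.131), and shares 14.1% of its exonic bases with D10Wsu102e on the other strand. These changes did not share a direction.

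The 6 other amino acid transporters all had negative log2 fold changes, from -0.33 to -0.04 with a median of -0.24, and none passed. Slc38a2, the SNAT2 carrier that cells raise when amino acids run short, was read at 303, 370 and 348 CPM in wild-type and at 281, 292 and 274 CPM in mutant pools. The mutant pools were all lower, with a log2 fold change of -0.27 (edgeR adjusted p = 0.0592). It passed in 8 of 18 alternative settings, among them the main fit read at a threshold of 0.1. Slc7a1, the cationic amino acid transporter, was at -0.33 (edgeR adjusted p = 0.189), with wild-type replicate 1 below all mutant pools, and it passed without that pool (edgeR adjusted p = 0.0117). Slc3a2, the heavy chain that pairs with the products of both Slc7a5 and Slc7a11, was chosen after its values were seen, at 69.1 and 67.4 CPM and a log2 fold change of -0.04. Among 13 genes for tRNA synthetases and tRNA export Iars, the isoleucyl-tRNA synthetase gene, fell from 254 ± 8.35 to 206 ± 12.2 CPM (SD, n = 3 each), which is -0.30 on the log2 scale by edgeR (SE 0.0734, adjusted p = 0.0241). The other 12 did not pass, and the median was -0.01. Leaving out wild-type replicate 2, or any 1 of the mutant pools, ended the call of Iars (adjusted p up to 0.207).

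The higher calls were 2 stress effectors that hold back mTORC1 signalling. Sesn2, the sestrin 2 gene, was read at 24.0, 21.8 and 22.8 CPM in wild-type and at 90.5, 83.9 and 69.3 CPM in mutant pools, with no overlap. It rose by 1.83 on the log2 scale (SE 0.106, edgeR adjusted p = 4.37e-08) and passed in all 18 alternative settings. Ddit4, which encodes REDD1, was read at 44.2, 24.9 and 40.2 CPM in wild-type and at 71.7, 70.5 and 56.9 CPM in mutant pools. It rose by 0.85 (SE 0.194, edgeR adjusted p = 0.0443). The call of Ddit4 was lost without wild-type replicate 3, without mutant replicate 1 or 2 and once exon length and GC were adjusted for, with adjusted p up to 0.185. The other 5 tested effectors did not pass, and their log2 fold changes were above 0. Of the effectors that were not tested, Fgf21 was at 0 counts in every pool and Gdf15 had 1 count in all. A count of 0 allows up to 0.245 to 0.433 CPM (3 counts over each pool's total counts, without TMM scaling). None of 11 genes for chaperones and other stress-response proteins of the endoplasmic reticulum passed, with a median of 0.02. Among them Sdf2l1 had -0.25 (edgeR adjusted p = 0.126) and Dnajb11 0.15 (edgeR adjusted p = 0.274).

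**Figure D4:**
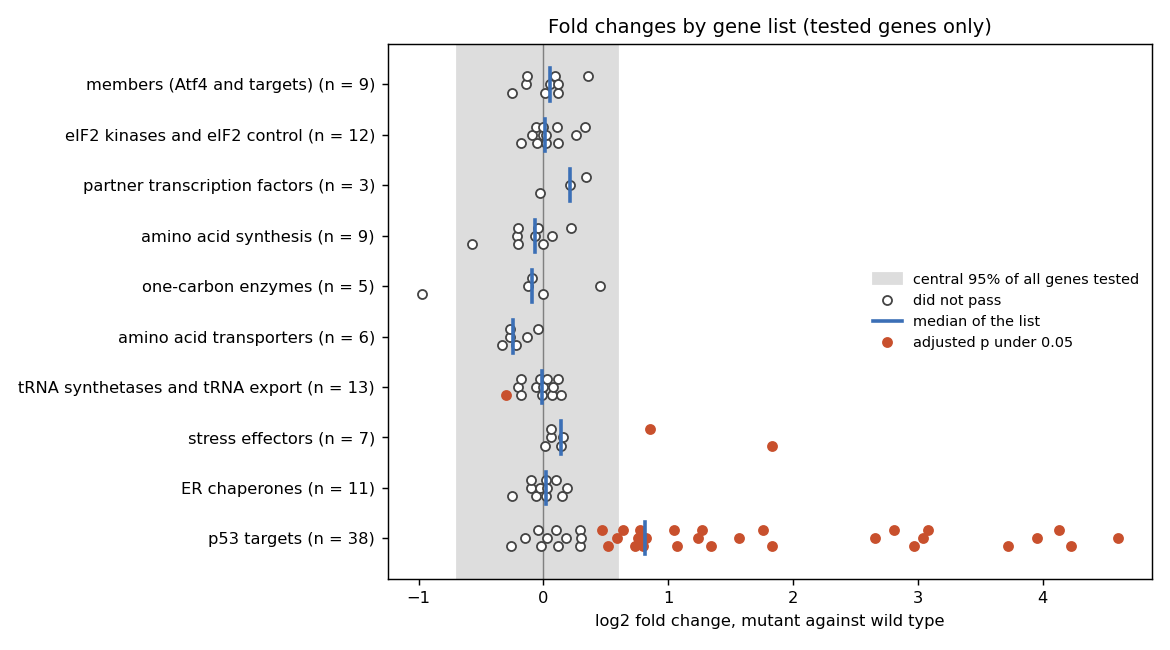
Log2 fold changes, mutant against wild type, of the tested genes of each list (points, filled where the adjusted p was under 0.05), with the list's median (blue line) and the central 95% of all genes tested, -0.69 to 0.60 (grey band). All 9 members lie inside the band. The p53 targets run from -0.26 to 4.60 with a median of 0.81.

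Targets of p53, the transcription factor activated by DNA damage and other stress, formed the contrast. Of 38 tested targets 27 were called higher and none lower, while 11 did not pass. Their log2 fold changes had a median of 0.81, and 4 lay below 0, the lowest at -0.26 for Sesn1. For Atf4 and its targets 0 of 9 were called, with a median of 0.05. Over all genes tested 6.52% were called, 2.65% higher and 3.88% lower, with a median of 0.00. A count of 0 among 9 is near that share. The p53 list was drawn up with earlier results of these data known, so its count is not independent evidence of its direction. The smallest p values belonged to Sesn2, which is on both lists, Ddit4l (3.72, edgeR adjusted p = 5.28e-08), Phlda3 (4.60, edgeR adjusted p = 4.11e-07) and Ak1 (1.76, edgeR adjusted p = 4.11e-07). Ddit4l, a relative of Ddit4, was read at 1.39, 1.70 and 1.55 CPM in wild-type and at 22.4, 23.0 and 14.8 CPM in mutant pools. In each of these 4 genes mutant replicate 3, the mutant pool that lacked Y-linked counts, was the lowest of the mutant pools. Among the members it was the highest mutant pool for Atf4, Asns, Trib3, Psat1, Shmt2 and Slc7a5. It was not the highest for Atf5, Chac1, Mthfd2 and Slc7a11. Gdf15, also on both lists, was not tested. The count of p53 targets called was between 25 and 29 in the 18 alternative settings, and that of the members was 0 in 16 of them and 1 in the other 2, with Slc7a5 lower in both.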

How the data were processed

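RNA was purified on RNeasy micro columns and sequenced as TruSeq total RNA libraries, per the labels' protocols. The deposited tables, 1 per pool, hold unnormalized counts per Ensembl gene, and the submitters' processing notes name build mm10. The sources used here do not give the aligner, counting program or strand setting, so genes on opposite strands can share reads. Symbols, coordinates and exon lengths came from GENCODE M21 (GRCm38), in which 54495 of 54532 IDs matched, and promoter sequences from RefSeq (GRCm38.p6). Copies of members were sought with blastn 2.17.0 among GENCODE transcripts (at least 200 bases at 90% identity).

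Genes were kept with edgeR's filterByExpr and tested over all 6 pools with edgeR 4.0.16 in R 4.3.3 (TMM factors, robust glmQLFit, two-sided glmQLFTest, Benjamini-Hochberg over all genes tested, threshold 0.05). SE is the size of the log2 fold change divided by the square root of F, and intervals use the t distribution with the fit's degrees of freedom. The step was tested on simulated data. Counts of like pools varied beyond sampling noise, with chi-square over degrees of freedom at 2.81 to 9.19. The alternatives were DESeq2 1.42.0, limma-voom (limma 3.58.1), other scaling factors and filters, no robust estimation, the replicate block, leaving out each pool, a threshold of 0.1, only the 4 pools that held Y-linked counts, and an offset for exon length and GC. A filter of 5 CPM in 3 pools was added after seeing the data, since 1 CPM kept the same genes as the main filter. The threshold of 0.1 was applied to the main fit, so it and the 1 CPM filter are not separate fits.

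The members and lists were chosen with earlier results of these data known. Named genes are the members, Sf3b4, the called genes of each pathway list or else the 2 with the smallest p, the 4 p53 targets with the smallest p, p53 targets that are also on a pathway list, and the 5 genes nearest to Atf4. Others were chosen after their values were seen, among them En1, Hoxa10, Sox10, Tfap2b, Sox9, Kdr, Eif2ak3, Eif2ak4, Nupr1, Ddit3, Slc3a2, Fgf21 and Sesn1.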

Additional observations from a re-analysis of the deposited data

How the results depend on the processing

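The 9 tested members stayed uncalled in every setting but a threshold of 0.1 and the fit without wild-type replicate 3, each of which called 1, Slc7a5, so the count ran from 0 to 1 with a pool left out. No sign changed for Atf4, Atf5, Shmt2 or Slc7a5. Among the 4 pools that held Y-linked counts Asns (-0.08), Psat1 (-0.06) and Mthfd2 (-0.03) had the opposite sign, as did Mthfd2 with library size alone (-0.01) and after the offset for exon length and GC (-0.01). With 1 pool left out, the log2 fold change ran from -0.02 to 0.16 for Asns, -0.07 to 0.55 for Chac1, -0.02 to 0.13 for Psat1, -0.02 to 0.07 for Mthfd2 and -0.34 to 0.03 for Slc7a11. None of these values passed, and the cause was not tested. The other pathway genes gave 3 calls, against 5 with upper-quartile factors, without a filter and with that offset, 6 at a threshold of 0.1, 6 among those 4 pools, and 1 to 5 with a pool left out. The 914 genes called in all became 1550 at a threshold of 0.1, 535 among those 4 pools, and 230 (without mutant replicate 1) to 1810 (without wild-type replicate 3) with a pool left out. The main split of 371 higher and 543 lower became 647 and 537 with the length and GC offset. Pools with the same replicate number did not deviate together (correlations of -0.161, 0.0515 and -0.0598), so the numbers were not taken as pairs. The replicate block gave 694 calls in all, none of them a member. Depth limits Trib3 and Chac1.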
